A study of Homo sapiens with 12 samples.

Results

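The 10 genes described here encode mucins, and they were taken by symbol from the 25528 rows of a table of transcript abundances in HT-29 cells. They comprise 3 gel-forming mucins (MUC2, MUC5AC and MUC5B) and 7 transmembrane mucins (MUC1, MUC3A, MUC4, MUC12, MUC13, MUC17 and MUC20). HT-29 is an established human colon adenocarcinoma line, and all 12 RNA-seq libraries carry its mutant APC, the controls included. Cells were infected with lentivirus in 2 separate arms. In the overexpression arm the virus encoded GFP (control) or CTNNB1, which encodes beta-catenin, and cells were collected on day 2 after infection. In the hairpin arm it carried the control hairpin shNT1 or the hairpin shAPC, and cells were collected on day 1 after 2 µM doxycycline. There were 3 libraries in each of the 4 groups. Vector, collection day and doxycycline all differ between the arms and cannot be told apart in a comparison across them. The labels do not say that the libraries of a group came from separate cultures, so p-values measure only the spread between these libraries.

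Mucins are very large glycoproteins whose central regions are rich in serine, threonine and proline and are densely decorated with O-linked sugars. Gel-forming mucins are secreted by goblet cells and other mucous cells and join end to end into the mucus gel. MUC2 is the main mucin of colonic mucus, while MUC5AC and MUC5B are chiefly made in the stomach surface, airways and glands. Transmembrane mucins stay on the apical surface, where they form part of the glycocalyx and can take part in signalling through their cytoplasmic tails. APC belongs to the complex that marks beta-catenin for degradation, and beta-catenin acts with TCF/LEF factors on WNT target genes.

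The shared feature of the family, and the way it differs among members, can be read in the coding sequence of the repeats. The stretches below come from GENCODE v29 transcripts on GRCh38 and are written on the coding strand, 5′ to 3′. Codons for serine, threonine or proline are in capitals and all other codons are in lower case. They show a member of each kind whose level carries a result: both gel-forming mucins with the higher levels, and 3 transmembrane mucins.
MUC5AC, chr11:1190473-1190568, plus strand, exon 31 of 49: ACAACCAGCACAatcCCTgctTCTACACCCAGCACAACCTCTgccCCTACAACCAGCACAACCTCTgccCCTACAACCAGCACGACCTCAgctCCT
MUC2, chr11:1097111-1097179, plus strand, exon 30 of 49: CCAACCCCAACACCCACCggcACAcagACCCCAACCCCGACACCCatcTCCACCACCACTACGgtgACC
MUC1, chr1:155189422-155189541, minus strand, exon 5 of 11: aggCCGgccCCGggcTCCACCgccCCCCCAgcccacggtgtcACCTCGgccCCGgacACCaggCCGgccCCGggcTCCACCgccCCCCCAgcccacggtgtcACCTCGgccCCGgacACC
MUC3A, chr7:100958629-100958730, plus strand, exon 2 of 12: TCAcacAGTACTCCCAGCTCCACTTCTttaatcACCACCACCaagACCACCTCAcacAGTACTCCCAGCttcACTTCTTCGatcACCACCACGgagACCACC
MUC13, chr3:124927749-124927868, minus strand, exon 2 of 12: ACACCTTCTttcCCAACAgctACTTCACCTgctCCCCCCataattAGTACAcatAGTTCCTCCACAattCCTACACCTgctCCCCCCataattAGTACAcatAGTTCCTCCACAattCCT

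The MUC5AC stretch holds 4 units of 24 bases, and 27 of its 32 codons encode serine, threonine or proline. The MUC2 stretch is 1 unit of 69 bases, with 19 such codons of 23. GENCODE v29 annotates no long coding transcript for MUC2, so its reading frame was taken as the frame with the most such codons. In MUC1 the stretch is 2 units of 60 bases with 20 of 40 such codons, and in MUC3A it is 2 units of 51 bases with 26 of 34. MUC13 gave no tandem period by the same search, and its stretch is the run of 40 codons richest in the 3 residues, 28 of them. The search used a window longer than this stretch, so it could miss a short repeat. The last part of the stretch does repeat, letter for letter, a run of codons shortly before it. Over whole coding sequences these codons made up 30.7% in MUC13, the lowest of the 9 members with an annotated frame, and 58.1% in MUC3A, the highest. MUC5AC had 45.5%, with 86 of 100 in its richest window.

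Repeats also bear on how reads can be assigned. Of the 31-base words in the longest transcript, 66.9% recur within the same transcript in MUC12, 48.2% in MUC1 and 1.26% in MUC13. Such words still belong to their own gene. Words shared with transcripts of another gene made up 76.7% of MUC20, mostly with its pseudogene MUC20P1 (60.3%), so the level of MUC20 is uncertain. For the other 9 members the shared part was at most 4.75%, and it was 0 for MUC2 and MUC13. MUC5B (chr11:1223066-1262172) overlaps the antisense gene MUC5B-AS1, and without known strandedness their reads cannot be told apart. MUC20 (chr3:195720882-195741123) likewise overlaps MUC20-OT1. MUC1, MUC3A, MUC12 and MUC17 each overlap a further annotated gene (AL713999.1, AC254629.1, AC105446.1 and RN7SKP54), and reads in an overlap could belong to either. MUC2, MUC5AC and MUC5B lie in a row on chromosome 11 (chr11:1074875-1110511 and chr11:1157953-1201138 for MUC2 and MUC5AC). MUC3A, MUC12 and MUC17 lie side by side on chromosome 7 (chr7:100949555-100968346, chr7:100969623-101018949 and chr7:101020072-101058745). MUC4 and MUC20 are neighbours on chromosome 3.

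The libraries listed 14756 to 16186 genes above 0, and the 10 most abundant genes held 9.07% to 11.3% of each. TPM, the unit of the table, is a share of a fixed total, and sequencing depth is unknown from it. The hairpin target APC was 15.8, 16.1 and 17.3 TPM with shNT1 and 6.59, 5.91 and 5.48 TPM with shAPC. CTNNB1 itself was 146 ± 2.87 TPM (SD, n = 3) with GFP and 160 ± 4.24 TPM with the CTNNB1 virus, and did not pass the test (limma adjusted p = 0.059). The WNT target AXIN2 averaged 39.2 and 81.6 TPM in these groups, and 29.9 and 92.1 TPM with shNT1 and shAPC. Of 8 colon epithelial markers, 7 were above 1 TPM in every group, and CDX2 was below. Of 10 markers of leukocytes, fibroblasts and endothelium, 9 averaged under 1 TPM in every group, and CD3E was at 0 in all 12 libraries. The exception was CD68, a lysosomal protein abundant in macrophages. The 10 genes summed to 27.1 to 28.0 TPM with GFP and 12.7 to 14.5 with CTNNB1, and to 13.7 to 15.1 with shNT1 and 6.93 to 9.23 with shAPC. CD68 fell in both arms, and its part in the results was not tested.

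HT-29 expressed mainly 2 of the 10 mucins. MUC13, a transmembrane mucin of the gut epithelium, was the highest in all 12 libraries, between 64.8 and 111 TPM. MUC5AC was next in all 4 groups, with group means of 27.0 ± 5.71, 12.4 ± 2.81, 25.8 ± 4.82 and 7.92 ± 2.24 TPM (SD, n = 3 each) for GFP, CTNNB1, shNT1 and shAPC. MUC20, MUC3A, MUC1 and MUC2 followed in that order in every group. No neighbours among these first 6 overlapped in their 3 libraries. MUC2 stayed below 1 TPM throughout. MUC12, MUC17 and MUC5B lay between 0.00967 and 0.113 TPM, and their order differed between groups. MUC12 overlapped the next member in GFP, CTNNB1 and shNT1. MUC4 was the lowest, at most 0.0117 TPM, and was listed at 0 in shAPC replicate 2. TPM divides by transcript length, but the quantifier and annotation are not given. How reads shared between genes were counted is also unknown, so comparisons of level between genes are approximate.

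**Figure D1:**
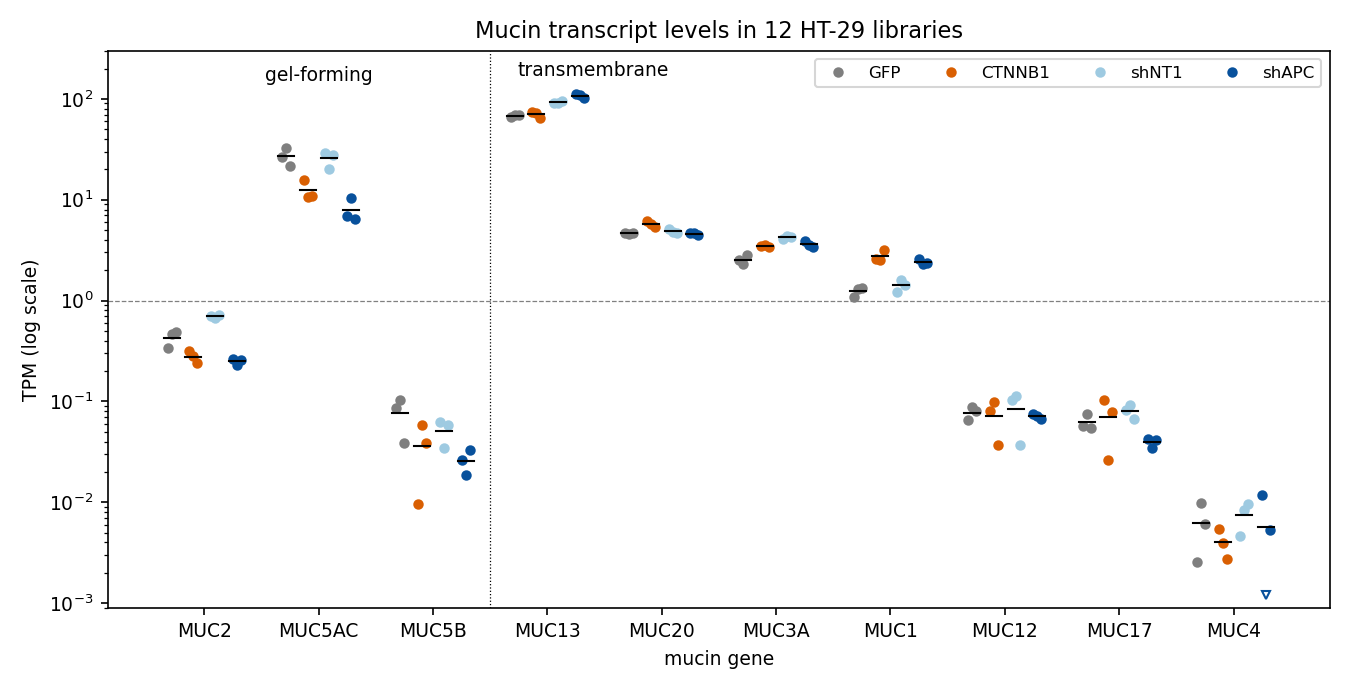
TPM of the 10 mucins (log axis) in the 12 libraries, by group. Filled points are libraries, black bars are group means, the open triangle at the bottom is a library listed at 0, and the dashed line marks 1 TPM; MUC5AC is lower in both perturbed groups and MUC1 is higher.

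Genes were tested where their TPM averaged 1 or more in the libraries of the fit. MUC5AC, MUC1, MUC3A, MUC13 and MUC20 passed this in both arms, and the other 5 members did not. Fold changes are on the log2(TPM + 1) scale, which understates the change of weakly expressed genes. A gene was called at a Benjamini-Hochberg adjusted p under 0.05 over all genes tested, with limma. Of the 5 mucins tested, 4 were called with CTNNB1 (3 higher, 1 lower), where 23.5% of 11624 genes were called, 16.3% higher and 7.16% lower. With shAPC, 3 of the 5 were called (2 higher, 1 lower), where 22.1% of 11834 genes were called, 7.24% higher and 14.9% lower. With 5 genes these counts give no finer reading, and the members are described one by one.

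MUC5AC fell in both arms. It was 26.6, 32.9 and 21.5 TPM in the GFP libraries and 15.6, 10.6 and 11.0 TPM in the CTNNB1 libraries. Every CTNNB1 library was below every GFP library. On the log2 scale it changed by -1.06 (SE 0.16; limma adjusted p = 0.0016), and the mean TPM was 2.18-fold lower. In the hairpin arm MUC5AC was 29.3, 20.3 and 27.9 TPM with shNT1 and 6.83, 10.5 and 6.43 TPM with shAPC. Again the groups did not overlap, and here the gap between them was wider. The log2 fold change of -1.60 (SE 0.17, limma adjusted p = 0.00016) went with a 3.26-fold lower mean. The 2 control groups overlapped in MUC5AC level. All shAPC libraries were below all CTNNB1 libraries, but by a narrow margin (10.5 against 10.6 TPM) and across arms. The difference between the arms in the size of the fall did not pass the test (0.54, SE 0.27, limma adjusted p = 0.19).

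MUC2 was weakly expressed. Its TPM was 0.339, 0.467 and 0.486 with GFP and 0.317, 0.280 and 0.240 with CTNNB1. The groups did not overlap, although GFP replicate 1 lay close to CTNNB1 replicate 1. With shNT1 it was 0.707, 0.669 and 0.725 TPM and with shAPC 0.265, 0.230 and 0.260 TPM, a 2.78-fold lower mean with a wide gap between the groups. In a fit without the filter on low values, MUC2 fell with shAPC (log2 fold change -0.44, SE 0.04, limma adjusted p = 0.0026) and was not called with CTNNB1 (-0.16, limma adjusted p = 0.098). With 0.1 added in place of 1 and no filter, the values were -1.19 (limma adjusted p = 0.011) and -0.48 (0.18). The authors' deposited table gives MUC2 a log2 fold change of -1.43 with shAPC (adjusted p = 0.00066). For CTNNB1, the authors' deposited table gives it -0.68 (adjusted p = 0.062). The shNT1 libraries were all above the GFP libraries, so the control level of MUC2 differed between the arms.

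MUC5B was near the bottom of the range. It was 0.0861, 0.104 and 0.0389 TPM with GFP and 0.00967, 0.0591 and 0.0388 TPM with CTNNB1, and these groups overlapped. With shNT1 it was 0.0619, 0.0342 and 0.0579 TPM and with shAPC 0.0263, 0.0186 and 0.0329 TPM, which do not overlap by a narrow margin. Without the filter it was called in neither arm (-0.06 and -0.04, limma adjusted p = 0.34 and 0.43). All 3 gel-forming mucins therefore had lower means in both perturbed groups, and the fall of MUC5AC passed the test in both arms and that of MUC2 in the hairpin arm without the filter.

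MUC1, whose cytoplasmic tail can bind beta-catenin, rose in both arms. It was 1.08, 1.30 and 1.33 TPM with GFP and 2.59, 2.53 and 3.20 TPM with CTNNB1. The lowest CTNNB1 library was well above the highest GFP library. Its mean was 2.24-fold higher, with a log2 fold change of 0.75 (SE 0.11, limma adjusted p = 0.0012). With shNT1 it was 1.22, 1.61 and 1.43 TPM, and with shAPC 2.57, 2.32 and 2.35 TPM, again without overlap. Here its mean was 1.70-fold higher, with a log2 fold change of 0.50 (SE 0.11, limma adjusted p = 0.012). The arms' effects on MUC1 did not differ by the test (0.25, SE 0.15, limma adjusted p = 0.25).

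MUC13, the most abundant member, rose slightly with shAPC. It was 90.7, 91.1 and 95.3 TPM with shNT1 and 111, 109 and 101 TPM with shAPC. The groups did not overlap, and the rise on the log2 scale was 0.21 with an SE of 0.05 (limma adjusted p = 0.021). This call was lost when any of shNT1 replicates 1 and 2 or shAPC replicates 1 and 2 was left out (limma adjusted p = 0.058 to 0.077). In the overexpression arm it was 66.7, 68.5 and 69.7 TPM with GFP and 74.2, 71.6 and 64.8 TPM with CTNNB1. These groups overlapped, and the test was not passed (0.04, SE 0.06, limma adjusted p = 0.68).

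MUC3A, a large transmembrane mucin of the enterocyte brush border, rose with CTNNB1 and not with shAPC. It was 2.52, 2.30 and 2.81 TPM with GFP and 3.46, 3.56 and 3.44 TPM with CTNNB1, without overlap. The rise on the log2 scale was 0.34 with an SE of 0.09 (limma adjusted p = 0.024). Leaving out GFP replicate 1, GFP replicate 2 or CTNNB1 replicate 2 ended the call (limma adjusted p = 0.075, 0.10 and 0.083). With shNT1 it was 4.08, 4.34 and 4.26 TPM and with shAPC 3.89, 3.58 and 3.42 TPM. All shAPC libraries were below all shNT1 libraries, and the log2 fold change of -0.18 did not pass the test (SE 0.09, limma adjusted p = 0.19). The authors' deposited table gives -0.18 with an adjusted p of 0.047 for it. The GFP libraries were the lowest of the 12 for MUC3A, below both groups of the hairpin arm.

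MUC20, a mucin reported to bind the receptor MET, was 4.67, 4.57 and 4.67 TPM with GFP and 6.16, 5.76 and 5.43 TPM with CTNNB1. It rose by 0.27 on the log2 scale (SE 0.08, limma adjusted p = 0.035). The call was kept when CTNNB1 replicate 3 was left out and lost when any of the other 5 libraries was (limma adjusted p = 0.053 to 0.12). With shNT1 it was 5.07, 4.77 and 4.72 TPM and with shAPC 4.73, 4.65 and 4.44 TPM, which overlap (-0.06, SE 0.08, limma adjusted p = 0.63). Its reads may include those of MUC20P1, given the sequence they share.

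MUC17, MUC12 and MUC4 could not be tested after the filter. MUC17, a brush border mucin like its neighbour MUC3A, was 0.0828, 0.0919 and 0.0665 TPM with shNT1 and 0.0424, 0.0349 and 0.0412 TPM with shAPC, without overlap. In the fit without the filter this was not called (-0.06, limma adjusted p = 0.20), while the authors' deposited table gives -0.93 with an adjusted p of 0.035. With GFP it was 0.0568, 0.0747 and 0.0542 TPM and with CTNNB1 0.103, 0.0261 and 0.0791 TPM, which overlap. MUC12 ranged from 0.0371 to 0.113 TPM over the 12 libraries and its groups overlapped in both arms, as did those of MUC4, a mucin that can associate with the receptor ERBB2. Neither was called without the filter.

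**Figure D2:**
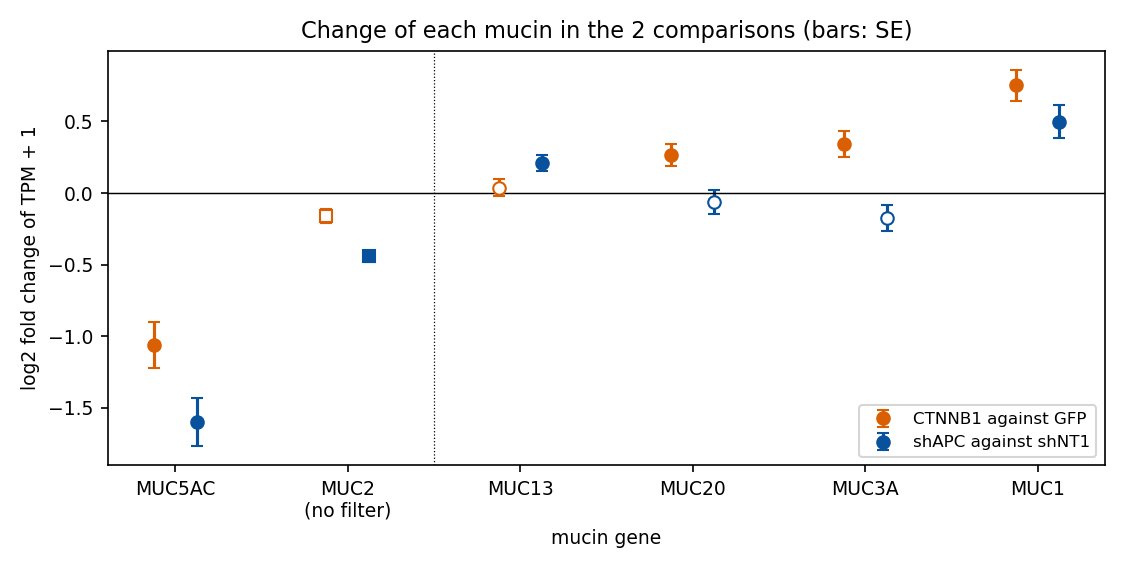
Log2 fold change of TPM + 1 with its SE for 6 mucins in the 2 comparisons (3 libraries a group). Filled symbols have a limma adjusted p under 0.05 and squares come from the fit without the filter on low values; MUC5AC lies furthest below 0 in both comparisons and MUC1 furthest above.

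Counting all 10 members, the perturbed and control libraries did not overlap for 5 with CTNNB1 (MUC2, MUC5AC, MUC1, MUC3A and MUC20). With shAPC this held for 7 (MUC2, MUC5AC, MUC5B, MUC1, MUC3A, MUC13 and MUC17). Among the 5 tested it was 4 in each arm, where 43.2% of all tested genes did so with CTNNB1 and 40.9% with shAPC. No such share was taken over genes under the filter, where MUC2, MUC5B and MUC17 lie. The counts over all 10 members therefore have no share to be read against. The median log2 fold change of the 5 tested members was 0.27 with CTNNB1 and -0.06 with shAPC, beside 0.06 and -0.04 over all genes. The 4 tested transmembrane mucins had medians of 0.30 and 0.07.

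Summed by class, the gel-forming mucins were lower in both perturbed groups. The transmembrane sum was higher with shAPC and overlapped its controls with CTNNB1. These sums are descriptions without a test. The gel-forming sum was 27.0, 33.5 and 22.0 TPM with GFP and 16.0, 10.9 and 11.3 TPM with CTNNB1. It was 30.0, 21.0 and 28.7 TPM with shNT1 and 7.12, 10.7 and 6.72 TPM with shAPC. The perturbed libraries were below the controls in both arms. MUC5AC made up 95.6% to 98.4% of this sum, which is therefore largely the MUC5AC level.

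The transmembrane sum was 75.1, 76.8 and 78.7 TPM with GFP and 86.6, 83.6 and 77.0 TPM with CTNNB1, which overlap. It was 101, 102 and 106 TPM with shNT1 and 122, 120 and 112 TPM with shAPC, which do not. MUC13 made up 84.2% to 91.1% of it. As a share of the TPM of all 10 mucins, the gel-forming class was 26.2% ± 4.23 (SD, n = 3) with GFP and 13.3% ± 2.05 with CTNNB1, and 20.4% ± 2.99 with shNT1 and 6.47% ± 1.53 with shAPC. The log2 ratio of the class sums, perturbed over control, was -1.11 for gel-forming and 0.10 for transmembrane mucins with CTNNB1. It was -1.70 and 0.19 with shAPC. The gap between classes was -1.21 and -1.89. When MUC13 was left out, the transmembrane ratio was 0.51 with CTNNB1 and 0.01 with shAPC, so the 2 arms differ in which transmembrane members had higher means. With shAPC only MUC13 and MUC1 had higher means, and MUC3A, MUC4, MUC12, MUC17 and MUC20 had lower ones. None of these falls was called in the fits made here, and MUC4, MUC12 and MUC20 overlapped their controls. With CTNNB1 the means of MUC4 and MUC12 were lower and those of the other transmembrane members were higher. Here MUC4, MUC12, MUC13 and MUC17 overlapped their controls.

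**Figure D3:**
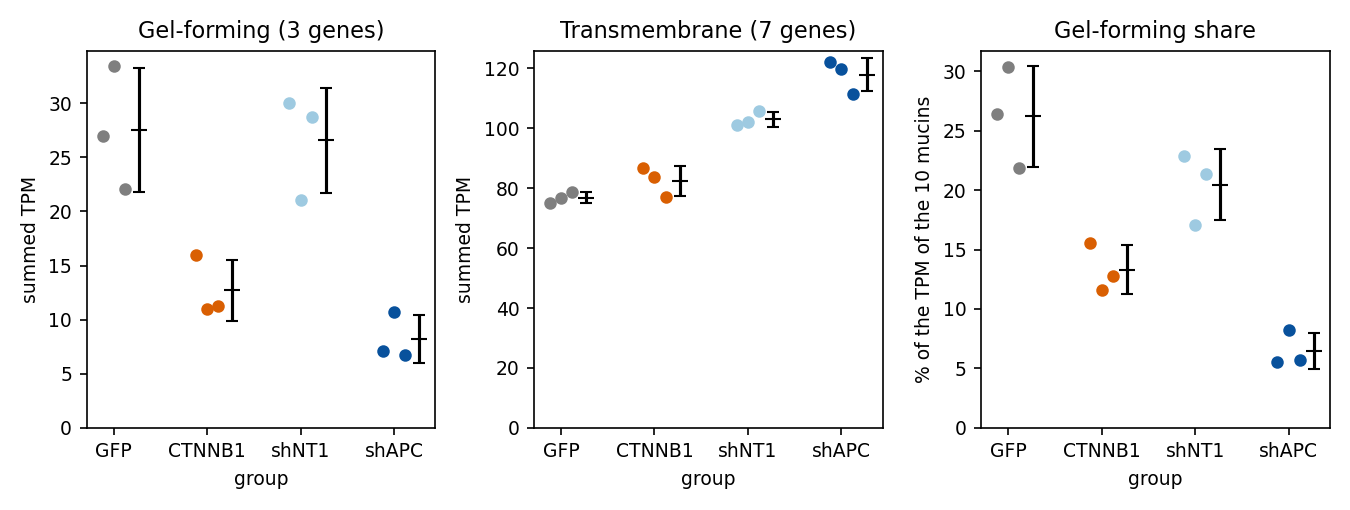
Summed TPM of the 3 gel-forming mucins (left) and the 7 transmembrane mucins (middle), and the gel-forming share of the TPM of all 10 mucins in percent (right). Points are libraries and bars are the mean and SD (n = 3); the gel-forming share is lower in every perturbed library than in its controls.

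The difference between the arms was tested by subtracting the shAPC effect from the CTNNB1 effect, with all 12 libraries in the fit. Of the 5 mucins tested, 2 were called, both higher, where 16.1% of 11741 genes were called, 13.3% higher and 2.76% lower. Over all genes the median difference was 0.11, and it was 0.00 after median-ratio scaling of the libraries, so single values are read against that shift. MUC3A had a difference of 0.52 (SE 0.12, limma adjusted p = 0.010), and MUC20 had 0.33 (SE 0.10, limma adjusted p = 0.042). For MUC3A the call held without each of the 12 libraries in turn and for MUC20 without only 2 of them, CTNNB1 replicate 3 or shAPC replicate 1. The call of MUC20 was also lost after median-ratio scaling (0.23, limma adjusted p = 0.094), after quantile normalization (limma adjusted p = 0.086) and with no filter (limma adjusted p = 0.051). MUC13 had a difference of -0.17 (SE 0.08, limma adjusted p = 0.15). It passed the test after median-ratio scaling (-0.29, limma adjusted p = 0.0075) and after quantile normalization (-0.30, limma adjusted p = 0.0072). MUC5AC and MUC1, which moved in the same direction in both arms, were not called. MUC2 had a difference of 0.28 in the fit without the filter (limma adjusted p = 0.020). With 0.1 added and no filter it was 0.71 and was not called (limma adjusted p = 0.11).

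Promoters of 7 of the 10 members were in the RefSeq promoter table (GRCh38.p14). MUC5AC, MUC5B and MUC20 were absent from it, so their promoters were not searched. The promoters of the gel-forming MUC2 and of the transmembrane mucins MUC13 and MUC1 are printed, as the 250 bases before the start on the coding strand. The core TCF/LEF motif CTTTGAT was searched on both strands. A first variant searched was CTTTGTT. Another variant of the core was CTTTGAA. The last variant of the core was CTTTGTA. The TATA box was searched as TATAAA. The variants and the TATA box were likewise searched on both strands. The variants and the TATA box were added after the expression values were seen. None of these words overlaps another in the printed windows, and capitals mark a match.
MUC2, chr11:1074624-1074873, plus strand: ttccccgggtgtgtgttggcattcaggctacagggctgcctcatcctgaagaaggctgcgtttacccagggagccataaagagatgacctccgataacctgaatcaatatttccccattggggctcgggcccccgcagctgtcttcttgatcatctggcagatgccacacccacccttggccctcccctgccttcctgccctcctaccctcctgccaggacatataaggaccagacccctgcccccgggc
MUC13, chr3:124934752-124935001, minus strand: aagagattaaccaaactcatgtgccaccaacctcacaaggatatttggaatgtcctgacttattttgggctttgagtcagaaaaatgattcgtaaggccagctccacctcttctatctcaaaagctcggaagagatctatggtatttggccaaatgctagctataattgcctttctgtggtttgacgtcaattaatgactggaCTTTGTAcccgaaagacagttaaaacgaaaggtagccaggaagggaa
MUC1, chr1:155192916-155193165, minus strand: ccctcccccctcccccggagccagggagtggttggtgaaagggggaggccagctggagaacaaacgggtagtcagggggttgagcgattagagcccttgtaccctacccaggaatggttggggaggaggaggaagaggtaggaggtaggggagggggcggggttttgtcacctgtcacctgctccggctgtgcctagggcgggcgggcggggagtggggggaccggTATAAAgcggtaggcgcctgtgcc

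CTTTGAT was in none of the 7 members' windows, and 2.27% of 34943 promoters in the table hold it. The set of this core and its 3 variants is in 11.985% of them. Among the 7 mucins searched, which do not include MUC5AC, it is in MUC13 alone, as CTTTGTA 47 bases before the start. TATAAA is in 10.8% of all promoters, counting either strand. Among the 7 mucins searched it is in MUC1, at 24 or 30 bases before its 2 listed starts. In MUC12 it is found only on the strand opposite to the coding strand. MUC1, which rose in both arms, and MUC2, which was lower in both, hold none of the 4 TCF/LEF words in these windows. A match is a description of letters and not of binding.

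The pathway around the mucins was described from 4 lists. Of 14 other mucin family genes, 12 were in the table and 3 passed the filter (MCAM, CD164 and OVGP1). MCAM, an adhesion molecule also known as MUC18, was the only one called. It rose with CTNNB1 (0.35) and fell with shAPC (-0.22), and the fall was not called with no filter (limma adjusted p = 0.062). No other gel-forming or transmembrane mucin of the list, such as MUC6 or MUC16, passed the filter.

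Most called genes of goblet cell secretion and its regulators fell, as MUC5AC did. With CTNNB1, 7 of 19 tested genes fell and 3 rose, with a median of -0.21 beside 0.06 over all genes. Over all genes 7.16% fell and 16.3% rose, so the share that rose is near that of all genes. Among those that fell were REG4, a secreted lectin (log2 fold change -1.43), KLF4, a transcription factor of goblet cell maturation (-0.52), and AGR2, a disulfide isomerase of the endoplasmic reticulum that mucin folding needs (-0.46). CREB3L1, a transcription factor of the secretory pathway, fell as well (-0.45). RETNLB, a secreted goblet cell peptide, rose (1.13), as did SYTL2, which acts in vesicle exocytosis (0.51), and the transcription factor FOXA3 (0.51). AGR2 averaged 1595 ± 32.3 TPM (SD, n = 3) with GFP and 1165 ± 73.9 TPM with CTNNB1, far above any mucin.

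With shAPC, 13 of 20 tested goblet cell genes fell and 1 rose, with a median of -0.54 beside -0.04, where 14.9% of all genes fell and 7.24% rose. The largest falls were SPINK4, a secreted protease inhibitor (-2.73), REG4 (-2.15), AGR3, a relative of AGR2 (-1.13), and the trefoil peptide TFF1, which averaged 13.3 ± 3.66 TPM with shNT1 and 6.03 ± 0.698 TPM with shAPC. REG4 averaged 96.1 ± 7.46 TPM with shNT1 and 20.9 ± 2.40 TPM with shAPC, while RETNLB again rose (1.40), from 3.24 ± 0.627 to 10.1 ± 0.463 TPM. Of the 4 goblet-like markers (MUC2, TFF3, SPDEF and ATOH1), SPDEF, a transcription factor of goblet cell maturation, fell in both arms (log2 fold change -0.40 with CTNNB1 and -0.49 with shAPC, limma adjusted p = 0.0066 and 0.0029). The trefoil peptide TFF3 and the transcription factor ATOH1 were called in neither, and MUC2 did not pass the filter. The 4 markers summed to 17.2 to 19.3 TPM with GFP and 14.3 to 16.6 with CTNNB1. They summed to 16.4 to 20.2 TPM with shNT1 and 12.6 to 14.7 with shAPC. SPDEF made up most of each sum. Its means were 13.9 TPM with GFP, 10.4 with CTNNB1, 12.4 with shNT1 and 8.51 with shAPC. The means of TFF3 and ATOH1 were higher with CTNNB1 and lower with shAPC than in their controls. Fewer cells in a goblet-like state and less RNA per cell cannot be told apart in such bulk libraries, for MUC5AC as for these genes. In the difference between the arms, 5 of 20 were called, all 5 higher (13.3% of all genes were), with a median of 0.32 beside 0.11 over all genes.

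**Figure D4:**
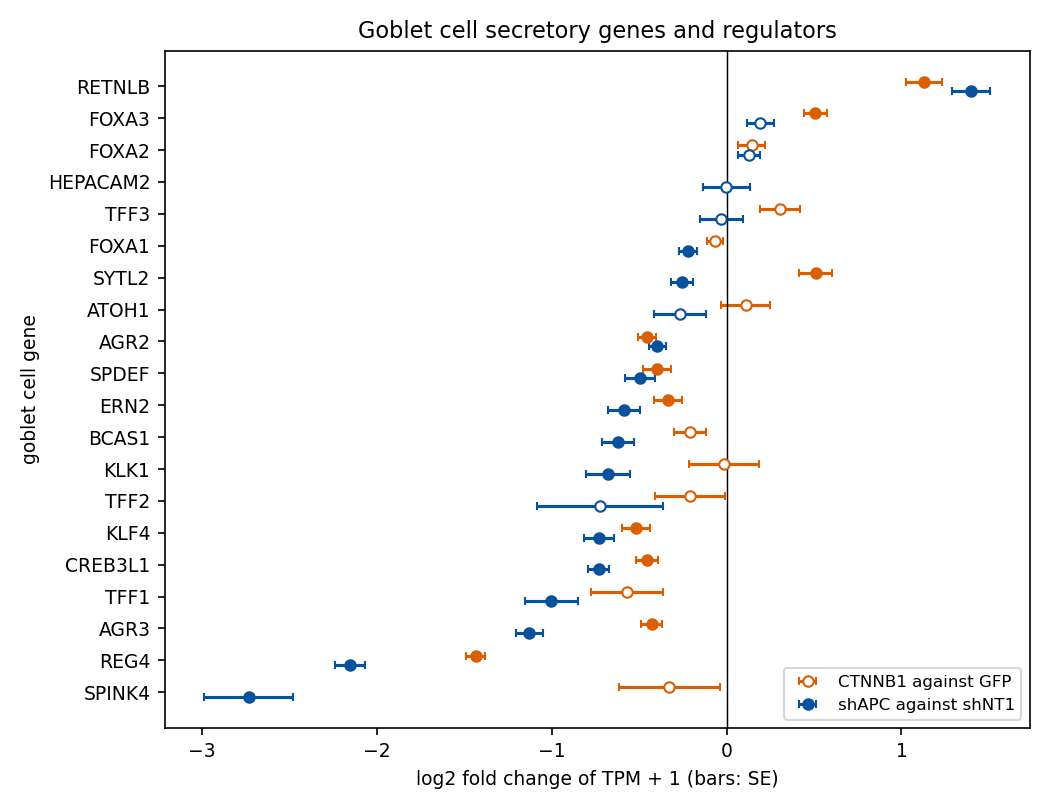
Log2 fold change of TPM + 1 with its SE for the goblet cell genes that passed the filter, in the 2 comparisons (3 libraries a group). Filled points have a limma adjusted p under 0.05; most called genes lie below 0, REG4 far below in both, and RETNLB lies above 0 in both.

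Enzymes that build the O-linked sugars of mucins split in direction with CTNNB1. Of 16 tested, 4 fell and 3 rose, with a median of 0.02 beside 0.06 over all genes, of which 7.16% fell and 16.3% rose. GCNT3, which branches mucin sugars, fell by 0.56 on the log2 scale, ST3GAL1, a sialyltransferase, fell by 0.51, GALNT3, which attaches the first sugar, fell by 0.30 and B3GNT3, which extends the chain, fell by 0.27. GALNT6, another enzyme of the first step, rose (0.76), as did C1GALT1, which makes the core 1 chain (0.27), and GALNT10 (0.20). The calls of B3GNT3 and C1GALT1 were lost with no filter (limma adjusted p = 0.075 and 0.058), and that of GALNT10 after median-ratio scaling (limma adjusted p = 0.066). With shAPC, 8 of 18 fell and 1 rose, with a median of -0.21 beside -0.04 over all genes, of which 14.9% fell and 7.24% rose. GALNT3 (-0.82), B3GNT3 (-0.72), the sialyltransferase ST6GALNAC1 (-0.60) and ST3GAL1 (-0.56) fell most, and GALNT6 was again the one that rose (0.64). GALNT3 averaged 144 ± 8.38 TPM with shNT1 and 81.1 ± 3.59 TPM with shAPC. In the difference between the arms 8 of 17 were called, all higher (13.3% of all genes were), and 3 of 17 after median-ratio scaling.

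Among 17 regulators and signalling partners, 13 passed the filter. With CTNNB1, 6 rose and 1 fell, with a median of 0.17 beside 0.06 over all genes, of which 16.3% rose and 7.16% fell. SOX9, a transcription factor of crypt cells, rose (0.35), as did the receptor kinases ERBB2 (0.30) and EGFR (0.23) and the epithelial factor ELF3 (0.22). LGALS3, a galectin that binds mucin sugars, fell (-0.20). After median-ratio scaling 3 rose and 1 fell, and ELF3 was no longer called (limma adjusted p = 0.081). With shAPC 3 of 13 were called, which is near the 22.1% of all genes, and the median was -0.08 beside -0.04. SOX9 rose (0.24), and EGFR (-0.48) and LGALS3 (-0.25) fell. The call of SOX9 was lost with no filter (limma adjusted p = 0.082), and that of LGALS3 after quantile normalization (limma adjusted p = 0.071). In the difference between the arms 6 of 13 were called, all higher (13.3% of all genes were), and 2 after median-ratio scaling. CDX2, a regulator of MUC2, averaged 0.257, 0.505, 0.758 and 0.587 TPM with GFP, CTNNB1, shNT1 and shAPC and did not pass the filter.

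The genes whose levels over the 12 libraries were most like that of MUC5AC were FFAR4, a fatty acid receptor, DKK1, a secreted WNT antagonist, and PLAUR, the urokinase receptor. Pearson's r on log2(TPM + 1) was 0.954, 0.954 and 0.948 among 9438 genes with a mean of at least 5 TPM. The 12 points share their arms and groups, so r mostly reflects the 4 group means. DKK1 averaged 454, 298, 448 and 211 TPM in GFP, CTNNB1, shNT1 and shAPC, the same order of groups as MUC5AC.

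The authors' deposited table for CTNNB1 lists log2 fold changes of -1.20 for MUC5AC (adjusted p = 0.019) and 1.06 for MUC1 (adjusted p = 0.011). For MUC3A and MUC20 the authors' deposited table gives 0.38 (adjusted p = 0.022) and 0.25 (adjusted p = 0.010). The authors' deposited table for shAPC lists -1.69 for MUC5AC (adjusted p = 0.013), 0.81 for MUC1 (adjusted p = 0.011) and 0.25 for MUC13 (adjusted p = 0.0041). In both of the authors' deposited tables MUC5B, MUC4 and MUC12 have adjusted p-values above 0.05. These tables tested the 5 weakly expressed mucins as well. They pair MUC2, MUC4 and MUC20 with gene identifiers that are not those of the primary chromosomes in GENCODE v29. Whether reads of these genes were divided between copies was not tested.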

How the data were processed

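RNA-seq was deposited for 12 HT-29 libraries in 4 groups of 3. The authors deposited TPM for 25528 rows and 12 columns, and per the submitters' processing notes the tools were STAR 2.7.3a and limma on hg38. The quantifier and annotation are not given in the sources used here. Per the file headers, the authors' comparison tables hold log2 fold changes and mean log2 expression, beside raw and adjusted p-values. A log-odds score in the deposited tables was not used. Depth is not recoverable from TPM, so precision rests on the 3 libraries of a group. Groups were taken from the sample labels. Since all columns sum to the same total, a TPM is a share, and a change in abundant genes shifts the others.

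limma 3.58.1 (R 4.3.3) fitted each arm on log2(TPM + 1) with a mean-variance trend, leaving out genes whose TPM averaged under 1. The fit was tested on simulated data. Changes were planted only in genes of higher mean TPM than MUC1 and MUC3A. They were larger than the changes of MUC3A, MUC13 and MUC20. That test therefore does not cover the calls of these mucins. Among called genes 69.5% were higher with CTNNB1 and 32.8% with shAPC, against 46.2% and 44.3% after median-ratio scaling and 52.9% and 49.4% after quantile normalization. For the difference between the arms the share was 82.8%, against 54.7% and 56.5%. Alternatives were a pseudocount of 0.1, no filter, these scalings, the replicate number as a block, and each library left out. Named were all 10 mucins, up to 4 called genes with the largest change in each direction per list, and the 3 genes most correlated with MUC5AC. CDX2, MUC6, MUC16, SPDEF, TFF3 and ATOH1, and the genes of the lists given with TPM, were picked after their values were seen. Codon composition stands in for the planned protein description. The members and lists were chosen with earlier results of these data known.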

Additional observations from a re-analysis of the deposited data

Results flagged for a closer look

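With the filter and no further scaling, the CTNNB1 effect minus the shAPC effect passed the test for 2 mucins. MUC13 passed it only after median-ratio scaling or quantile normalization. For MUC3A the difference was 0.52 on the log2(TPM + 1) scale, with all 3 CTNNB1 libraries above all 3 GFP libraries and all 3 shAPC libraries below all 3 shNT1 libraries. For MUC20 it was 0.33, and this call was lost with no filter, after median-ratio scaling and after quantile normalization (limma adjusted p = 0.051, 0.094 and 0.086). Most of the MUC20 transcript sequence is shared with other genes. Groups of 3 libraries were not examined for single outlying values.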

How the results depend on the processing

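MUC5AC and MUC1 kept their direction and their call in both arms under every alternative run, with MUC5AC between -1.23 and -0.91 (CTNNB1) and between -1.80 and -1.48 (shAPC) when single libraries were left out. MUC3A with CTNNB1 lost its call after quantile normalization and with a pseudocount of 0.1 and no filter (limma adjusted p = 0.091 and 0.056), and MUC20 with CTNNB1 after no filter, median-ratio scaling and quantile normalization (limma adjusted p = 0.067, 0.055 and 0.10). Over all results on single mucins, 188 alternative values kept their side of the threshold, 35 lost the call and 2 gained it. The class ratios depended on how members were weighted. As the mean of log2(TPM + 1) differences over members, the gel-forming value was -0.43 with CTNNB1 and -0.69 with shAPC, the transmembrane value 0.20 and 0.056, and the gap between classes -0.63 and -0.75. Without MUC5AC the gel-forming ratio with CTNNB1 was -0.69 and the gap -0.79. Without MUC13 the transmembrane ratio was 0.51 with CTNNB1 and 0.012 with shAPC, and the gap with CTNNB1 was -1.62. Median-ratio scaling brought the transmembrane ratio with CTNNB1 to 0.025. Leaving out MUC20 was added after seeing the data, as was no filter with a pseudocount of 0.1. The number of genes called ranged from 1499 to 3190 with CTNNB1 (2730 with all libraries), from 1484 to 2252 with shAPC (2615) and from 995 to 2143 for the difference between the arms (1885) when single libraries were left out. The causes were not tested.

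Whether replicate numbers pair the libraries was examined from their deviations from group means. The correlation of same-numbered deviations was 0.216, 0.07 and 0.115 in the overexpression arm. Differently numbered pairs there ran from -0.183 to 0.069, so same-numbered libraries were slightly more alike. In the hairpin arm it was -0.146, -0.006 and -0.206, and differently numbered pairs ran from -0.12 to 0.199, so no pairing was seen there. With the replicate number as a block, 2895 genes were called with CTNNB1 (2577 of them also without the block), 1767 with shAPC (1741 of them also without) and 1752 for the difference. Under the block MUC20 with CTNNB1 and MUC13 with shAPC lost their calls (limma adjusted p = 0.051 and 0.064), as did MCAM and SOX9 with shAPC (limma adjusted p = 0.095 and 0.068).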
